A study of Mus musculus with 6 samples.

Results

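The genes of 10 proteins that bind microtubules in axons and dendrites were followed through hippocampal expression arrays of mice labelled as overexpressors of the RNA-binding protein HuD: Map1a, Map1b, Map2, Mapt (tau), Map4, Map6, Dcx (doublecortin), Dclk1, Dpysl2 and Crmp1. Every probe set of the deposited table that the platform annotation gives exactly 1 gene symbol was taken where that symbol was 1 of these 10. This gave 36 of 45037 probe sets, for 10 of the 18193 genes that such probe sets name. A probe set is a group of array probes designed for a transcript sequence and read out as 1 intensity. Probe sets of the same gene thus measure the same gene's RNA at different places and are not replicates of a condition. Whether the probes of a set also match other transcripts was not examined.

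Total RNA was measured in cells isolated from the mouse hippocampus, described as DGCs, a term that in this study stands for granule cells, the main excitatory cell of the dentate gyrus. The transgenic group held 3 arrays from 2 mice of the HuD overexpressor line, and the control group 3 arrays from 2 control mice, with 1 array for mouse 1 and 2 arrays for mouse 2 of each group. The mouse was the replicate, so n = 2 in each group. The labels used here give no strain, sex, age, construct or promoter of the transgene and no pooling of animals; all 6 samples share a treatment entry of the preservation type. A tag, re-LCM, whose meaning is not given, stands in the titles of transgenic mouse 1, transgenic mouse 2 array 1 (with the word block) and control mouse 1, and the titles of both arrays tied to control mouse 2 number the controls 1 and 2. Titles and descriptions may thus disagree on which mouse these arrays come from; the descriptions were followed, and the count of control mice and the comparison of arrays within control mouse 2 rest on them. Groups are named as the labels name them.

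Microtubules are polymers of alpha and beta tubulin that run along axons and dendrites, and microtubule-associated proteins bind their wall, space them and set how stable they are. MAP2 is the classic protein of dendrites and tau that of axons, MAP1B is abundant in growing axons and MAP1A in mature neurons. Doublecortin is made by newborn neurons, in the adult dentate gyrus by immature granule cells, and the collapsin response mediator proteins encoded by Dpysl2 and Crmp1 bind tubulin and act in the growth cone's response to guidance cues. HuD, encoded by Elavl4, stabilises many mRNAs of growing neurons, and tau mRNA is among those it is known to bind.

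A RefSeq table on build GRCm38.p6 held promoter windows, from 250 bases before to 50 after an annotated start, for 7 of the 10 genes (11 windows); Mapt, Map6 and Dpysl2 were not among them. Those of Map1b, the member with the largest difference between the groups, and of Dcx and Dclk1 (1 of 2 windows each), relatives whose tested probe sets all had differences below 0, are printed to show how unlike the starts of these genes are. Capitals mark GC boxes (GGGCGG) and TATA boxes (TATAAA), searched on both strands.
Map1b, chr13:99516553-99516852, minus strand: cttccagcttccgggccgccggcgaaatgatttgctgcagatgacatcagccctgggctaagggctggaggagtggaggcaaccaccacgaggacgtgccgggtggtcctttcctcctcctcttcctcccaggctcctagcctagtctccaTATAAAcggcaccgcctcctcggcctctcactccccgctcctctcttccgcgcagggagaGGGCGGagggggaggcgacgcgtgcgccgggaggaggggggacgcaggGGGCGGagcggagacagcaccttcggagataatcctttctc
Dcx, chrX:143933075-143933374, minus strand: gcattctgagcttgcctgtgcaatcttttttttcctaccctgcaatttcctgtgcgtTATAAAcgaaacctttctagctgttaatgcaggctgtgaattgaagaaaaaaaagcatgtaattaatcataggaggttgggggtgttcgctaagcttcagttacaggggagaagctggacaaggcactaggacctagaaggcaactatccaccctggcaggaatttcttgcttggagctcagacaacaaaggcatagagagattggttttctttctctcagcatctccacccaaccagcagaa
Dclk1, chr3:55242114-55242413, plus strand: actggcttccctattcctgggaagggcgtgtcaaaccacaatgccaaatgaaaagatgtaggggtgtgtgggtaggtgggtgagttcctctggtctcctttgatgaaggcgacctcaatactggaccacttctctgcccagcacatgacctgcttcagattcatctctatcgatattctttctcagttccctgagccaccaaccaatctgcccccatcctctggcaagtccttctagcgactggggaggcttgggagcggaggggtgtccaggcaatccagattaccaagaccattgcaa
The Map1b window was 65.7% G and C and held 2 GC boxes and 1 TATA box. The Dcx window was 44.7% G and C, with 1 TATA box and 0 GC boxes, and the Dclk1 window was 52.7% G and C, with 0 of either. Over all 32851 windows of that length the median was 52.7% G and C, 35.7% held a GC box and 13.6% a TATA box. An E-box (CANNTG, both strands), not capitalised here, was found once in the Map1b window, 2 times in that of Dclk1 and 0 times in that of Dcx, and in 72.3% of all windows. These matches describe letters in the windows and are not binding sites.

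On each array the 2% trimmed mean over all probe sets was 150.001, so the authors had scaled the arrays alike, and 23.9% to 26.4% of probe sets lay at or under the floor used here, an intensity of 10.1. Elavl4 was not higher on the arrays labelled transgenic: its brightest probe set differed by -0.33 in log2 and read 79.4, 93.3 and 60.1 on the transgenic arrays against 122, 92.8 and 63.7 on the controls (the array of mouse 1, then both arrays of mouse 2, an order kept throughout), and its other 2 probe sets differed by -0.15 and -0.73 in log2. Which parts of the gene these probe sets and the transgene cover is not given in the sources used here, so they are no check of the group names. The granule cell markers Dsp (desmoplakin) and Calb1 (calbindin) read 6366 to 7845 and 6907 to 7444 on the transgenic arrays and 7009 to 9391 and 6736 to 7033 on the control arrays, and the summed intensity of 12 granule cell markers was 29033 to 30718 against 29535 to 32589. Control mouse 1 was the highest array in markers of oligodendrocytes and astrocytes. The summed intensity of 10 oligodendrocyte markers was 5719 to 8362 on the transgenic arrays, against 12433 in control mouse 1 and 6355 and 4936 in control mouse 2. That of 11 astrocyte markers was 9737 to 13146 on the transgenic arrays, against 16526 in control mouse 1 and 13712 and 10826 in control mouse 2. In these isolated cells, fewer cells of a type and less RNA per cell cannot be told apart.

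The first comparison asked which member genes differed between transgenic and control mice. No member passed the test. The largest difference was that of Map1b, whose brightest probe set was 1.70-fold higher in transgenic mice, and the next was that of Dcx, lower in transgenic mice. The other 8 genes differed by at most 0.24 in log2. Differences are log2 intensity, transgenic minus control, of the brightest probe set of each gene, with standard errors and 95% intervals from limma's moderated fit on 2 against 2 mice.

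Of the 10 genes, 6 had differences above 0 and 4 below 0, with a median of 0.05 against 0.0026 over all 14678 genes tested. Of these 14678, 11138 were genes with a symbol. The rest were probe sets with no or several symbols, each counted as a gene, and all shares of genes given here include them. In limma's fit, 0 members passed an adjusted p of 0.05, as did 0% of all genes tested, and each member's adjusted p was 0.999. At an unadjusted limma p under 0.05 there was 1 member, Map1b, against 4.31% of all genes. All 3 transgenic arrays lay above all 3 control arrays for 2 members, Map1b and Map4, as for 3.86% of all genes, and below them for 0 members, as for 4.22% of all genes; without regard to direction the share of all genes was 8.07%. The 95% intervals were wide, with a median half-width of 0.47 for the members with 2 mice a group, and a p above the threshold does not show that a gene did not differ.

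**Figure D1:**
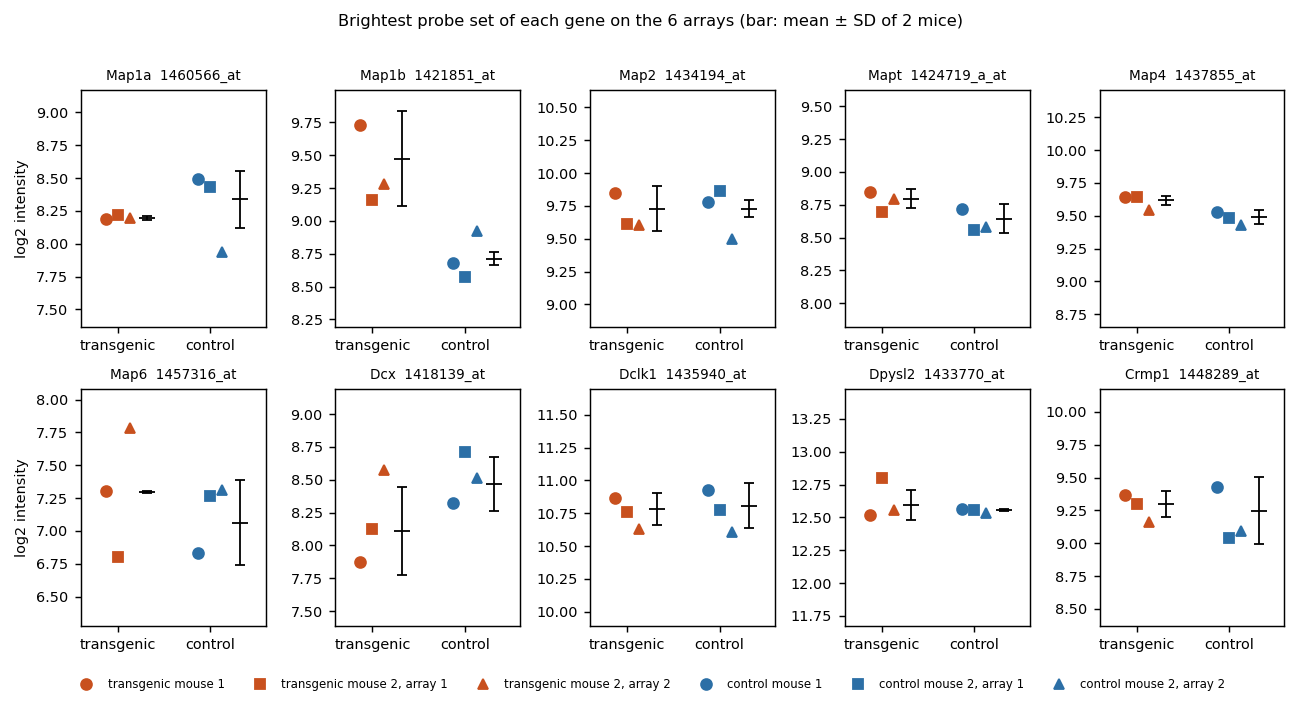
Log2 intensity of the brightest probe set of each of the 10 genes on the 6 arrays, transgenic (orange) left of control (blue), 1 symbol per array, with bars for the mean ± SD of 2 mice; all panels span the same log2 range. The 3 transgenic arrays lie above the 3 control arrays for Map1b and Map4 and mix with them for the other 8 genes.

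Map1b encodes a long protein of growing axons that is cleaved into a heavy and a light chain. Its brightest probe set, 1421851_at, read 849 on the array of transgenic mouse 1 and 573 and 622 on those of transgenic mouse 2, against 410 for control mouse 1 and 381 and 485 for control mouse 2. The array of transgenic mouse 1 was the highest, and the lowest transgenic array was above the highest control array. Mean log2 intensity was 9.48 ± 0.36 in transgenic and 8.71 ± 0.05 in control mice (SD, n = 2), a difference of 0.76. In limma's fit its SE was 0.22, its interval 0.17 to 1.35 and its unadjusted p 0.021. Leaving out a mouse or an array gave 0.51 to 1.02, the lowest without transgenic mouse 1 and the highest without transgenic mouse 2. Among the 3 arrays with the re-LCM tag the difference was 0.77, and among the 3 without it 0.53. The tagged arrays set both transgenic mice against control mouse 1. Those without the tag set transgenic mouse 2 array 2 against both arrays of control mouse 2. Here and below, these splits take arrays as samples, and in the controls the tag cannot be told apart from the mouse.

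A second bright Map1b probe set did not show this. Probe set 1450397_at read 533, 524 and 425 on the transgenic arrays and 598, 496 and 395 on the control arrays, a difference of -0.04 (interval -0.61 to 0.54, limma, probe set fit). The groups overlapped, and within each mouse 2 the second array was the lower one. The remaining one, 1421850_at, was dim, at 18.7 to 30.8 on the transgenic arrays and 5.06 to 51.5 on the control arrays, with control mouse 1 under the floor. The platform annotation gives the same source sequence for all 3. The gap of 0.80 between the differences of both bright probe sets was larger than that of 93.4% of the 2901 genes with a pair of tested probe sets, whose median gap was 0.22. With the mean of both in place of the brightest, the Map1b difference was 0.36.

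Map1a encodes the related protein of mature dendrites and axons. Its brightest probe set read 291, 298 and 294 on the transgenic arrays and 360, 345 and 245 on the control arrays. The transgenic values lay within the range of the control values, and the difference was -0.14 (SE 0.18, interval -0.61 to 0.33, limma). The difference was 0.01 without control mouse 1, and -0.29 without control mouse 2. Its second probe set differed by 0.10, and both were lowest on control mouse 2 array 2.

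**Figure D2:**
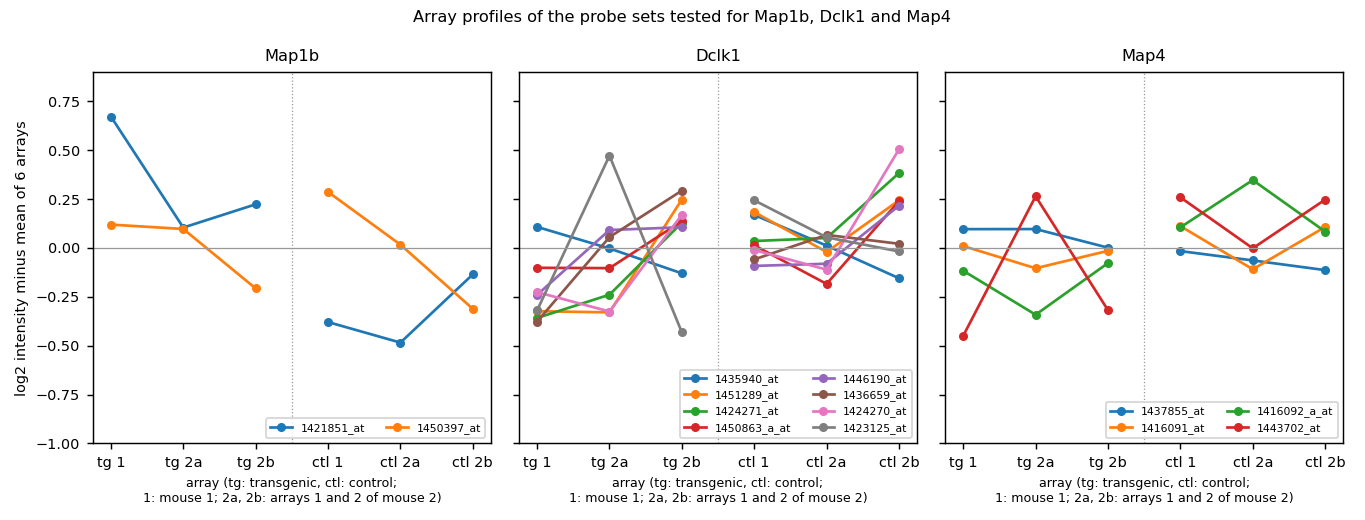
Log2 intensity minus the mean of the 6 arrays (y axis) for each tested probe set of Map1b, Dclk1 and Map4 (lines) on the 3 transgenic arrays, left of the dotted line, and the 3 control arrays. The Map1b probe sets follow different courses, 5 of the 8 Dclk1 probe sets are higher on array 2 than on array 1 in both mice, and the Map4 probe sets 1437855_at and 1416092_a_at differ between the groups in opposite directions. Array numbers are not matched between the groups.

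Map2, Mapt and Map4 encode a family that shares tubulin-binding repeats. Map2, the dendritic member, had 923, 783 and 778 on the transgenic arrays and 877, 933 and 724 on the control arrays in its brightest probe set. These ranges overlapped, and the means differed by -0.00073 (SE 0.17, interval -0.45 to 0.45, limma). Its other tested probe sets differed by -0.20 and -0.16, also with overlap. The first of them, 1440699_at, was lowest on the array of transgenic mouse 1 (131) and read 248 and 292 on the arrays of transgenic mouse 2, against 205, 165 and 309 on the control arrays. Without transgenic mouse 1 its difference was 0.32, and without transgenic mouse 2 it was -0.72. The fourth Map2 probe set was at or under the floor on 4 of 6 arrays.

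Mapt, which encodes tau, read 461, 415 and 443 on the transgenic arrays and 422, 376 and 383 on the control arrays. Every transgenic array but that of mouse 2 array 1 was above every control array, and the difference was 0.15 (SE 0.16, interval -0.27 to 0.58, limma). It kept its direction under all 20 alternatives, between 0.05 and 0.23, and passed under none of them. Its lowest adjusted p was 0.57 (limma), with mouse as a random block. Of its other probe sets, 1455028_at and 1424718_at differed by 0.12 and 0.23 and the dimmer 1417885_at by -0.19, each with overlap between the groups. Unlike the brightest, each of them changed sign with a mouse or an array left out. They ran from -0.07 to 0.30, from -0.02 to 0.47 and from -0.57 to 0.18, in that order.

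The probe sets of Map4, which encodes the form found in most cell types, went both ways. Probe set 1437855_at read 798, 799 and 748 on the transgenic arrays and 739, 714 and 690 on the control arrays. The transgenic arrays lay above the control arrays without overlap, by a difference of 0.12 (SE 0.15, interval -0.28 to 0.53, limma). Probe set 1416092_a_at read 124, 106 and 127 on the transgenic arrays and 145, 171 and 142 on the control arrays. Here the transgenic arrays lay below the control arrays without overlap, by -0.32 (interval -0.76 to 0.11, limma, probe set fit), and leaving out a mouse or an array gave -0.39 to -0.26. The other tested probe sets, 1416091_at and 1443702_at, differed by -0.08 and -0.43 with overlap. The mean of the 4 gave -0.18, against 0.12 for the brightest. The gap of 0.55 among them was larger than that of 62.3% of the 477 genes with 4 tested probe sets.

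Map6 encodes the stable tubule only polypeptide, which protects microtubules from cold. Its brightest probe set read 158, 112 and 220 on the transgenic arrays and 114, 154 and 159 on the control arrays. The arrays of transgenic mouse 2 gave both the lowest and the highest value, 0.98 apart in log2, while the difference between the groups was 0.24 (SE 0.21, interval -0.32 to 0.79, limma). Without transgenic mouse 2 array 2 the difference was -0.01, and without control mouse 1 it was 0.0061. Its second probe set showed the same gap between the arrays of transgenic mouse 2 (0.89) and a group difference of 0.03.

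Doublecortin, the marker of newborn granule cells, had the second largest difference. Dcx probe set 1418139_at read 234, 279 and 381 on the transgenic arrays and 320, 419 and 365 on the control arrays. Transgenic mouse 1 was lowest, and transgenic mouse 2 array 2 was above all but the highest control array. Mean log2 intensity was 8.11 ± 0.34 in transgenic and 8.47 ± 0.20 in control mice (SD, n = 2), a difference of -0.36 (SE 0.24, interval -0.98 to 0.26, limma). A second probe set, 1418141_at, differed by -0.43 and read 69.1, 92.9 and 113 on the transgenic arrays and 120, 106 and 108 on the control arrays. Transgenic mouse 1 was lowest in both. Without it the differences were -0.12 and -0.14, and among the 3 arrays without the re-LCM tag they were -0.04 and 0.08, against -0.33 and -0.58 among those with it. The other 2 Dcx probe sets were dim, with 1 and 4 of 6 arrays at or under the floor.

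Markers of immature neurons mostly had the sign of Dcx. Of 12 listed genes other than the members, 10 were tested and 9 had differences below 0, all but Tubb3 (0.27). The median of the 10 was -0.39 against 0.0026 over all genes. None passed in limma's fit, and 1 was at an unadjusted p under 0.05, against 4.31% of all genes. The arrays of the groups did not overlap for 2, both lower in transgenic mice, against 8.07% of all genes. Their summed intensity was 3062 to 3383 on the transgenic arrays and 3369 to 4078 on the control arrays, highest in control mouse 1, and none of those on the array was under the floor on all 6 arrays. Mean log2 intensity of the 10, minus that of the 6 arrays, was -0.37 in transgenic mouse 1 and 0.45 in control mouse 1. It was -0.11 and -0.06 in transgenic mouse 2 and 0.07 and 0.02 in control mouse 2, so most of the gap lay between the arrays of mouse 1. The brightest of these markers were Neurod1 and Sox11, transcription factors of young neurons, at -0.17 and -0.26. They read 1135 and 1137 in transgenic mouse 1 and 1510 and 1384 in control mouse 1, and so hold most of the sums there. The median SE of the 10 was 0.31, against 0.20 over all genes (limma). This sign was not particular to markers of immature neurons. All 10 tested oligodendrocyte markers also had differences below 0, with a median of -0.57. So had 7 of 7 microglial, 9 of 11 astrocyte and 7 of 9 interneuron markers. The part of any of these cell types in the Dcx values was not tested.

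Dclk1 encodes a protein kinase with the same microtubule-binding domains as doublecortin, and shorter forms without them. All 8 of its tested probe sets had differences below 0, from -0.33 to -0.03, and for each of them the arrays of the groups overlapped. The brightest, 1435940_at, read 1869, 1731 and 1585 on the transgenic arrays and 1949, 1749 and 1558 on the control arrays, nearly the same range, and differed by -0.03 (SE 0.18, interval -0.50 to 0.44, limma). The differences farthest from 0 were those of 1424271_at and 1451289_at, both -0.33. Probe set 1424271_at read 879, 954 and 1231 on the transgenic arrays and 1154, 1167 and 1468 on the control arrays. In it transgenic mouse 2 array 2 lay among the control arrays and the other 2 transgenic arrays below them. Which transcript forms each probe set reads was not examined.

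The common direction of the Dclk1 probe sets depended on the arrays included. It held for 8 of 8 with quantile normalization, for 7 of 8 without control mouse 1 and for 6 of 8 without transgenic mouse 1. Among the arrays without the re-LCM tag it held for 4 of 8, and among those with it for 7 of 8. The differences of the 8 lay within 0.30 of each other, against a median of 0.66 for the 9 genes with 8 tested probe sets, Dclk1 included. In 5 of the 8, array 2 was above array 1 in both mouse 2s, though array numbers are not matched between the groups.

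**Figure D3:**
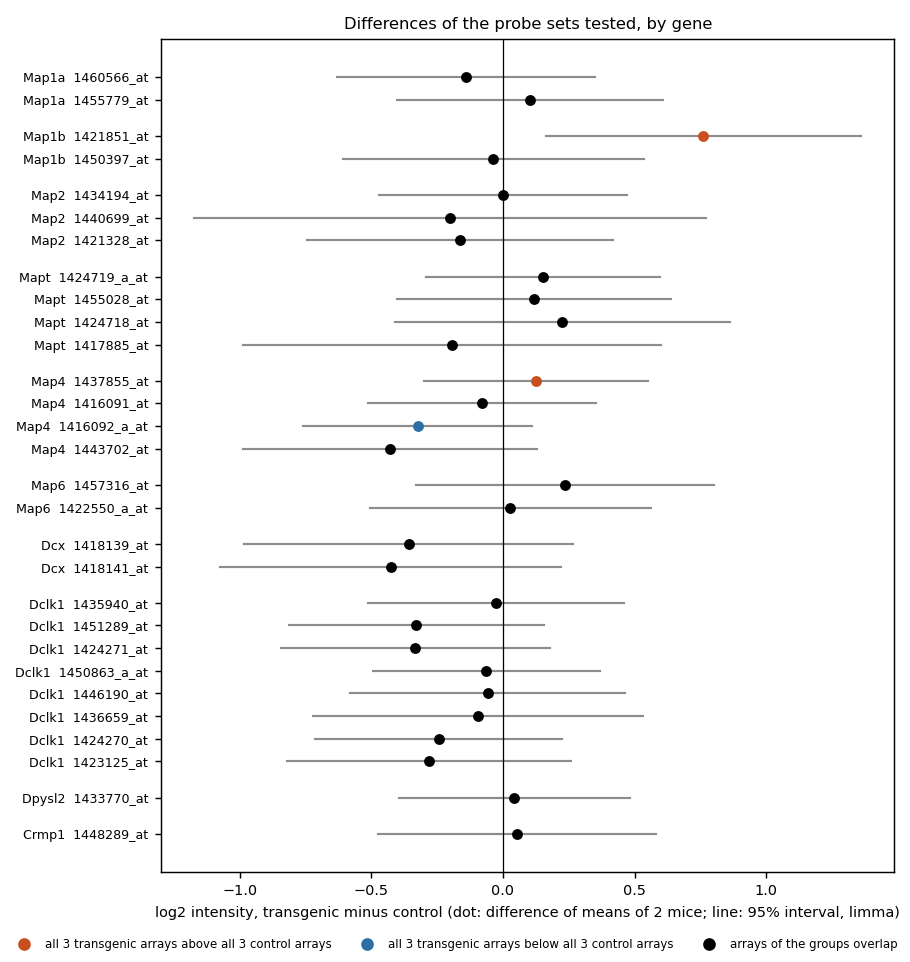
Difference in log2 intensity, transgenic minus control, of the 29 tested probe sets of the 10 genes (dots), with 95% intervals from limma's fit over all tested probe sets (lines). The interval leaves out 0 only for Map1b 1421851_at; arrays of the groups do not overlap for that probe set and 2 of Map4.

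Dpysl2 and Crmp1 encode collapsin response mediator proteins 2 and 1, which act downstream of semaphorins, and of which the first binds tubulin dimers. Dpysl2 read 5858, 7137 and 6026 on the transgenic arrays and 6044, 6038 and 5941 on the control arrays. The control arrays lay close together, transgenic mouse 2 array 1 was the highest and transgenic mouse 1 the lowest, and the difference was 0.04 (SE 0.16, interval -0.37 to 0.46, limma). A second Dpysl2 probe set, 1450502_at, read 7.15, 2.996 and 6.14 on the transgenic arrays, all under the floor, and 20.1, 19.5 and 20.4 on the control arrays, all above it. It was below the median of all probe sets and was not tested.

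The single Crmp1 probe set read 661, 629 and 571 on the transgenic arrays and 688, 528 and 545 on the control arrays. Transgenic values lay between the extremes of the controls, with a difference of 0.05 (SE 0.20, interval -0.46 to 0.57, limma). The direction turned to -0.13 without control mouse 2, and to -0.09 among the arrays with the re-LCM tag.

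Across all probe sets of the 10 genes, 29 of 36 were above the median intensity and tested, at or under the floor on no array. The 7 others were 1 each of Map1b, Map2, Map4, Dclk1 and Dpysl2 and 2 of Dcx. Of the 29, 10 had differences above 0 and 19 below 0, with a median of -0.06 against -0.0036 over 22518 probe sets, and 8 of the 19 were those of Dclk1. Limma's probe set fit called 0 of them, as it did 0% of all probe sets, and 1 was at an unadjusted p under 0.05, against 4.42% of all. The arrays of the groups did not overlap for 3, the Map1b and both Map4 probe sets named above, against 8.15% of all. For genes with several tested probe sets, all differences had the same sign for Map2 (3), Map6 (2), Dcx (2) and Dclk1 (8). They had both signs for Map1a, Map1b, Mapt and Map4. The brightest Map2 probe set was near 0, at -0.00073. Without transgenic mouse 1, 1 of 3 Map2 and 1 of 2 Map6 probe sets were below 0. The share of all genes whose probe sets had the same sign was not counted.

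The difference between both arrays of a mouse was set beside that between the groups. These measures are unlike, since the first compares single arrays and the second compares means over 2 mice. Noise between arrays alone would make the first the larger, so the comparison does not show whether mice or groups vary more. The mean size of the difference between both arrays of a mouse, over transgenic and control mouse 2, was larger than the group difference for 21 of the 29 probe sets (72.4%), and for 74.7% of all probe sets tested. Its median over the 29 was 0.26, against 0.15 for the size of the group difference. Array 2 was above array 1 in both mouse 2s for 14 of the 29 (48.3%), against 30.3% of all, among them 3 of 4 of Mapt and both of Map6. The array numbers follow the order of the samples, and nothing ties array 2 of the transgenic mouse to array 2 of the control mouse. In transgenic mouse 2 the arrays also differ in the re-LCM tag, while neither array of control mouse 2 carries it. A shared array effect therefore cannot be read from this count. Transgenic mouse 1 was the lowest array for 10 of the 29, among them 3 of Dclk1, 2 of Map2 and 2 of Dcx, and control mouse 1 for 0. The shares over all probe sets were not counted, so whether this is particular to the members is not known. Over all probe sets, transgenic mouse 1 had the lowest median intensity, 32.3 against 32.4 to 36.8 on the other arrays. Transgenic mouse 2 array 2, with a median of 32.4, was the lowest array for 1 of the 29 and the highest for 6.

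**Figure D4:**
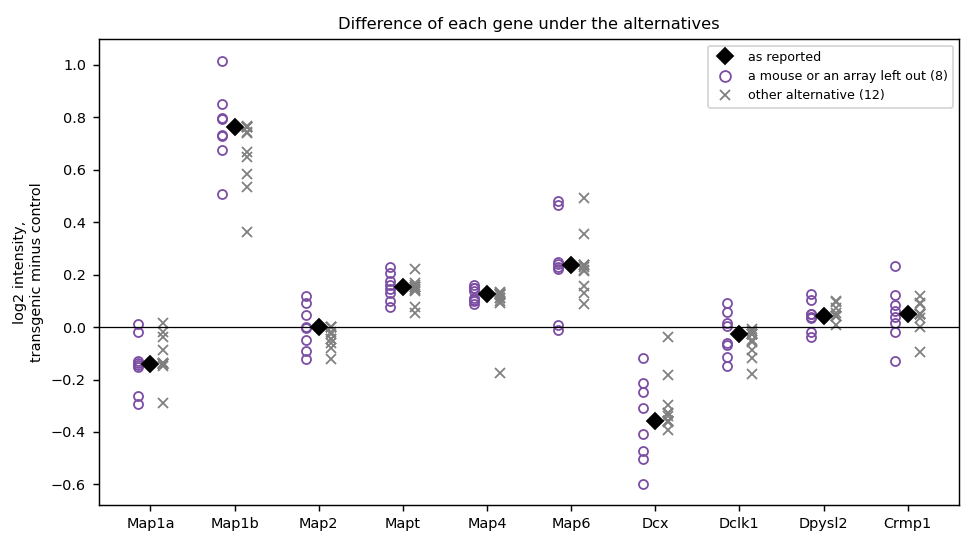
Difference in log2 intensity, transgenic minus control, of each of the 10 genes as reported (diamonds), with a mouse or an array left out (circles) and under 12 other alternatives (crosses). Map1b, Mapt and Dcx keep their sign throughout; Map1b runs from 0.36 to 1.02 and Dcx from -0.60 to -0.04.

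The second comparison took the same difference through other genes of the microtubule, listed by role. Of 101 listed genes 89 were tested, 50 with differences above 0 and 39 below 0, with a median of 0.01. Limma's fit called 0 of them, and 2 were at an unadjusted p under 0.05, against 4.31% of all genes. The arrays of the groups did not overlap for 4, 2 higher and 2 lower in transgenic mice, against 8.07% of all genes; neither count is above that background. In each role the genes named are those of smallest unadjusted p, and their adjusted p was 0.999 (limma).

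Tubulins, the subunits, were even, with 5 of 10 tested genes above 0 and 5 below. Tubb6, a beta tubulin of many tissues, differed by -0.51 (SE 0.26), and by -0.18 without transgenic mouse 1. Tubb3, the beta tubulin of neurons, differed by 0.27 (SE 0.24). Tubb3 read 117, 129 and 48.2 on the transgenic arrays and 81.4, 77.8 and 79.6 on the control arrays. Of the nucleation factors, 4 of 6 were above 0, led by the gamma tubulin complex subunits Tubgcp2 (0.23) and Tubgcp4 (0.15). Of the stathmins, which bind free tubulin, 2 of 4 were above 0. Stmn4 read 1651, 1076 and 1377 on the transgenic arrays and 982, 1219 and 918 on the control arrays, a difference of 0.48 (SE 0.21), or 0.26 without transgenic mouse 1, and Stmn2 differed by -0.19 (SE 0.37).

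Among other proteins that bind the microtubule wall, 7 of 10 were below 0. Mtus1 read 47.1, 48.5 and 69.2 on the transgenic arrays and 89.0, 58.4 and 82.4 on the control arrays, a difference of -0.59 (SE 0.21, unadjusted p = 0.043, limma). Among the arrays with the re-LCM tag the Mtus1 difference was -0.90, and among those without it -0.0020. Map10 differed by -0.39, by -0.06 without transgenic mouse 1 and by -0.71 without transgenic mouse 2. Map9, named after its values were seen, was the 1 gene of that list whose transgenic arrays lay below the control arrays without overlap, by -0.11. Of the remaining doublecortin and collapsin response mediator genes 3 of 5 were below 0, among them Dclk3 (-0.33) and Dpysl3 (-0.37). Dpysl5, named after its values were seen, differed most in that list, by 0.58 (SE 0.44).

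Proteins of the plus and minus ends gave the difference farthest from 0. Mapre3 encodes EB3, the end-binding protein of neurons, and read 58.4, 84.3 and 42.0 on the transgenic arrays and 164, 134 and 58.5 on the control arrays. Transgenic mouse 2 array 1 was above control mouse 2 array 2, so the groups overlapped. The difference was -1.03 (SE 0.33, interval -1.89 to -0.17, unadjusted p = 0.028, limma), and -0.59 to -1.48 with a mouse or an array left out, nearest to 0 without control mouse 1. Ckap5, a microtubule polymerase, differed by -0.48 (SE 0.20) without overlap, and by -0.22 without transgenic mouse 2 array 1. Of the genes of this group 8 of 14 were below 0.

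The severing enzymes Katnal1 and Katna1, of the katanin family, differed by 0.13 and -0.03, and 2 of 3 were above 0. Kinases and phosphatase subunits that act on tau and its relatives were above 0 in 11 of 14 cases, with a median of 0.04. Mark4 (0.42) and Cdk5 (0.31), both tau kinases, were of smallest p. Without control mouse 2 the Mark4 difference was 0.22, and without transgenic mouse 1 that of Cdk5 was 0.10. Mark2, another tau kinase, named after its values were seen, differed most in that list, by -0.51 (SE 0.37). Hdac6, a tubulin deacetylase, read 193, 186 and 154 on the transgenic arrays and 146, 131 and 126 on the control arrays, higher without overlap by 0.40 (SE 0.17), while Ttll1, of a tubulin glutamylase, differed by 0.17. Of these modifying enzymes 5 of 7 were above 0. Motors of axon and dendrite were above 0 in 10 of 16 cases. Dctn1, the large dynactin subunit, was higher without overlap by 0.29 (SE 0.17), or 0.19 without control mouse 1, and the dynein light intermediate chain Dync1li1 differed by 0.71 (SE 0.53), with control mouse 1 among the transgenic values.

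**Figure D5:**
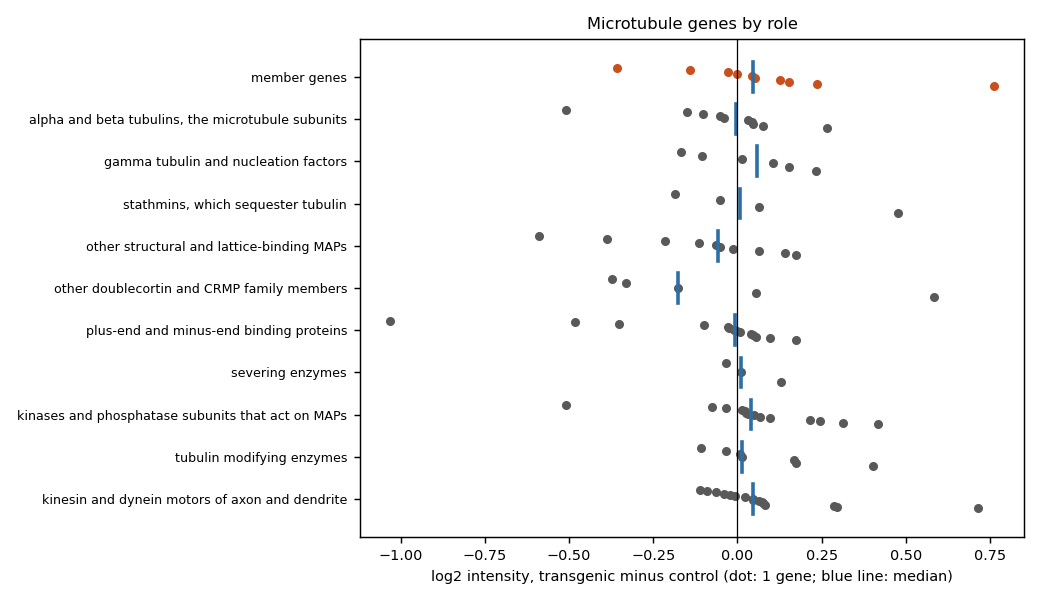
Difference in log2 intensity, transgenic minus control, of the 10 member genes (orange, top row) and of the 89 other tested microtubule genes by role (grey), 1 dot per gene, with the median of each row as a blue line. Medians of the rows lie between -0.18 and 0.06, and the dots farthest from 0 are Mapre3 at -1.03, Map1b at 0.76 and Dync1li1 at 0.71.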

How the data were processed

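The values are probe set intensities on a linear scale, 1 per probe set and array, as deposited by the authors. Arrays had been scaled to a common 2% trimmed mean; the sources used here do not give the program that summarised probes or its background correction. The 64 control probe sets were left out. Of the other 45037, 34945 had 1 gene symbol in the platform annotation, 932 several and 9160 none; Entrez identifiers matched 34741 to RefSeq and changed 0 symbols. Intensities under the pooled 25th percentile (10.1) were set to it and log2 was taken. Arrays of a mouse were averaged, and 2 transgenic mice were compared with 2 control mice with limma 3.58.1 (lmFit and eBayes in R 4.3.3). P was adjusted by Benjamini-Hochberg and called at 0.05. This was done once over 14678 genes (the brightest probe set of each, among those above the median mean) and once over all 22518 probe sets above that median. The 14678 hold 11138 genes with a symbol, and each probe set with no or several symbols counted as a gene of its own. The fit had 2 residual and 2.70 prior degrees of freedom. It was also run on simulated arrays drawn without a mouse effect, to check that planted differences were recovered. That check does not cover its error rate with 2 mice a group. Nothing says that arrays of 1 mouse came from separate captures, so only mice were counted as n. The number of arrays limits the precision.

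The members and all lists were chosen with earlier results of these data known. Genes named are the 10 members, from each microtubule list the 2 tested genes of smallest unadjusted p, and from each marker list the 2 brightest tested genes; Map9, Dpysl5, Mark2 and Edil3 were named after their values were seen. Markers of microglia, astrocytes, vascular cells, interneurons and pyramidal cells are given with the other observations. Mouse numbers are shared by the groups but nothing ties mice of 1 number together, and across 14678 genes their deviations from the group means correlated at 0.03, so the fit has no block. Alternatives changed the normalization, the floor, a pseudocount of 16 in its place, the filter, the use of several probe sets, the replicate, the variance model, the tag (as a term or a split), a block on the mouse number, and which mice or arrays were included.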

Additional observations from a re-analysis of the deposited data

How the results depend on the processing

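Member genes called stayed at 0 under all 20 alternatives, and so did member probe sets under the 19 that could be run on them (a mean over the probe sets of a gene gives no probe set values) and other microtubule genes under 20. With a variance trend and robust variance 1 of all genes passed, Edil3 (adjusted p = 0.0098, limma), no member. With a mouse or an array left out, the median difference of the member genes ran from -0.0057 to 0.12 and that of the other microtubule genes from -0.017 to 0.071, both highest without transgenic mouse 2. Over the same left-out mice or arrays, single genes that changed sign ran from -0.294 to 0.0116 (Map1a), -0.12 to 0.12 (Map2), -0.0101 to 0.480 (Map6), -0.148 to 0.0922 (Dclk1), -0.0384 to 0.124 (Dpysl2), -0.13 to 0.23 (Crmp1), -0.0885 to 0.619 (Tubb3), -0.0509 to 0.359 (Tubgcp4), -0.71 to 0.33 (Stmn2), -0.0266 to 0.283 (Katnal1), -0.27 to 0.20 (Katna1) and -0.0534 to 1.48 (Dync1li1). Among arrays without the re-LCM tag the sign turned for Map1a (0.0138), Tubb3 (-0.71), Stmn2 (0.17), Dpysl3 (0.0305), Katnal1 (-0.0470), Katna1 (0.0690), Cdk5 (-0.31) and Ttll1 (-0.0263), and among those with it for Crmp1 (-0.0937). With the tag as a term it turned for Crmp1 (-0.0013) and Tubb3 (-0.0557). With the mean of a gene's probe sets it turned for Map4 (-0.18), Tubgcp4 (-0.00035) and Mark4 (-0.0470), with quantile normalization for Katna1 (0.00056), and with mouse fitted as a random block, at an estimated correlation of -0.54, for Stmn2 (0.13). Genes that kept their sign but moved by over 1.5 times with a mouse or an array left out ran from -0.84 to -0.18 (Tubb6), 0.07 to 0.39 (Tubgcp2), 0.26 to 0.70 (Stmn4), -0.71 to -0.06 (Map10), -0.51 to -0.15 (Dclk3), -0.60 to -0.14 (Dpysl3), -1.48 to -0.59 (Mapre3), -0.74 to -0.22 (Ckap5), 0.22 to 0.61 (Mark4), 0.10 to 0.52 (Cdk5), 0.09 to 0.24 (Ttll1) and 0.19 to 0.39 (Dctn1). Of the members, Map1b (0.51 to 1.02), Mapt (0.08 to 0.23) and Dcx (-0.60 to -0.12) also moved by over 1.5 times with their sign kept. The causes were not tested. With the mouse number as a replicate block, 0 genes were called, 702 were at an unadjusted p under 0.05 against 632 without it, and the Map1b difference of 0.76 had an adjusted p of 0.96 (limma), so the block changed no call. Over all alternatives, adjusted p for Map1b was lowest, at 0.25 (limma), with mouse as a random block. With that setting 1770 genes were at an unadjusted p under 0.05 (limma), against 632 in the main fit. Its negative correlation makes standard errors smaller, so this value may overstate the evidence. Settings that leave 1 mouse in a group assume that it varies like the others. Limits: 2 mice a group, an unknown probe summarisation, probe sets whose transcript forms were not examined, and values near the floor, which have no order.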

Other observations

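Markers of cell types that neighbour granule cells mostly had differences below 0, none past an adjusted p of 0.05 in limma's fit. Of 7 tested microglial markers 7 had differences below 0, with a median of -0.33 (Csf1r -0.33, Ctss -0.26). Of 11 astrocyte markers 9 were below 0, with a median of -0.21 (Clu -0.47, Gja1 -0.39). Of 6 vascular markers 4 were below 0 (median -0.27, Slco1a4 -0.28, Rgs5 -0.25), and of 9 interneuron markers 7 (median -0.38), while the 2 brightest interneuron markers, Gad1 and Cck, were above 0 at 0.11 and 0.35. Of 6 pyramidal cell markers 4 were below 0 (median -0.15, Nr4a2 -0.07, Bok 0.18). Of the oligodendrocyte markers the brightest were Mbp (-0.27) and Cnp (-0.57). Of 12 granule cell markers 8 were below 0, with a median of -0.06 (Dsp -0.16, Calb1 0.09).

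Tubb3, listed both as a tubulin and as an immature neuron marker, was the 1 tested immature neuron marker with a difference above 0.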
